A study of Mus musculus with 10 samples.

Results

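Immunity-related GTPases are interferon-inducible enzymes of mouse cells that gather on the membranes around intracellular pathogens. The genes Irgm1, Irgm2, Igtp, Iigp1, Tgtp1 and Tgtp2 were taken by symbol from the deposited table, which held rows for 6 of 6 among its 16936 protein-coding genes. The treated samples, BMDM_PLG, were 5 samples of mouse bone marrow-derived macrophages exposed for 24 h to PLG, named in the series' design text as human plasminogen, from which the protease plasmin is cut. The control samples, BMDM_untreated, were 5 samples of the same kind of cell without PLG. Marrow cells of both groups had grown with 50 ng/mL of GM-CSF over 7 days, a cytokine that yields cells with macrophage and dendritic cell features. No sample carried an added interferon or an infection according to the labels, and the labels give no strain, age or genotype of the mice. The labels link replicates neither to mice nor to separate cultures, so the p-values below measure the spread between these samples, which may be technical, and no control preparation stands beside PLG.

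The family falls into regulatory and effector members. The regulatory proteins, called GMS after the methionine in their nucleotide-binding loop, sit on the cell's own membranes and hold the effectors in their inactive, GDP-bound state. The effector proteins, called GKS after the lysine at that place, load onto pathogen vacuoles when bound to GTP and take part in breaking them down. In macrophages their genes are known as targets of interferon gamma, whose signal acts at GAS elements, and of type I interferon, whose signal acts at ISRE elements, where interferon regulatory factors also bind.

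The bases that code for the nucleotide-binding loop are shown for the regulatory genes and for Tgtp1 and Tgtp2, and are given here as read from the GRCm38 genome with the GENCODE coding annotation. Capitals mark the codon that gives the classes their names, ATG for methionine or AAG for lysine.

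Irgm1, coding bases 247 to 270: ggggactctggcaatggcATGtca

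Irgm2, coding bases 247 to 270: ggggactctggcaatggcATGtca

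Igtp, coding bases 271 to 294: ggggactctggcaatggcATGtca

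Tgtp1, coding bases 187 to 210: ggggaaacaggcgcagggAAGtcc

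Tgtp2, coding bases 187 to 210: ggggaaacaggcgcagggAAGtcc

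The 3 regulatory genes had the same letters here, and so did Tgtp1 and Tgtp2. Over the whole coding sequence Igtp and Irgm2 were 66.3% identical, Irgm1 and Igtp 64.0% and Irgm1 and Irgm2 61.8%. Iigp1 was 56.3% identical to Tgtp1, and Tgtp1 and Tgtp2 were 99.7% identical, at 1241 of 1245 aligned positions. Between regulatory and effector genes the identity was 46.6% to 49.0%.

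The promoters are shown because letters that match the interferon elements named above lie close to the RefSeq start. They were read from the RefSeq promoter table of GRCm38.p6, which holds 250 bases before and 50 bases after each gene's start, and matched 5 of the 6 genes by symbol, all but Iigp1. Capitals mark matches to the ISRE letters GAAANNGAAA and the GAS letters TTCNNNGAA, both searched on both strands, where N is any base and a run of capitals in Irgm1 holds overlapping ISRE matches.

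Irgm1, chr11:48871421-48871475, minus strand: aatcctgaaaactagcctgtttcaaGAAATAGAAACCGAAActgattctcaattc

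Irgm2, chr11:58214877-58214947, plus strand: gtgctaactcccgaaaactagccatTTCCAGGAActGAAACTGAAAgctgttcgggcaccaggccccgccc

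Igtp, chr11:58199486-58199555, plus strand: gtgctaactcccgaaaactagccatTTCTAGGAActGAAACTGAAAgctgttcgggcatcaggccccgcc

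Tgtp1, chr11:48992289-48992359, minus strand: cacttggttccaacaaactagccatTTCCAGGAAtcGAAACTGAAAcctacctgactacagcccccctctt

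Tgtp2, chr11:49064248-49064318, minus strand: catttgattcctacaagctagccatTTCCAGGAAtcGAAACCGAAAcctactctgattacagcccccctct

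An ISRE match occurred in 5 of these 5 promoters and in 3.44% of all 32851 promoters of the table. A GAS match occurred in 4 of 5, the exception being Irgm1, and in 8.30% of all promoters. Both motifs stood in the promoters of Irgm2, Igtp, Tgtp1 and Tgtp2, and in 0.454% of all promoters. In each of these 4 genes the GAS match lay upstream of the ISRE match and did not overlap it. The ISRE matches began at positions -64, -34, -77 and -70 from the start in Irgm2, Igtp, Tgtp1 and Tgtp2, and at -30 and -24 in Irgm1. The NF-kB letters GGGANTTTCC had no match in the 5 promoters, against 0.411% of all promoters. A match describes the letters of the window and is not evidence of binding. The promoters of Igtp and Irgm2 were 72.8% identical over the whole window and those of Tgtp1 and Tgtp2 66.0% identical.

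Expression was deposited as FPKM, a read density scaled to gene length and to the depth of the sample, and whole reads could be recovered from its steps. The table's genes took 33547089 to 64214553 reads per PLG sample and 28426106 to 37680105 per untreated sample, so that 1 read on a gene of 1 kb was worth 0.0141 to 0.0313 FPKM. Macrophage markers (8 of 8 in the table) summed to 3137 to 3243 FPKM in PLG samples and 5874 to 7395 FPKM in untreated samples, a sum led by Lyz2, which averaged 2000.1 FPKM with PLG and 5792 FPKM without. Csf1r, Cd68, Mertk and Itgam were also lower with PLG, while Adgre1 (177 FPKM with PLG, 80.02 FPKM without) and Cd14 (508 FPKM with PLG, 33.7 FPKM without) were higher and Fcgr1 did not pass. Dendritic cell markers (7 of 7) summed to 927 to 1022 FPKM in PLG samples and 573 to 702 FPKM in untreated samples, led by Ccr7, with 542 FPKM with PLG and 38.1 FPKM without. Flt3, Zbtb46, Dpp4 and Batf3 were also higher with PLG, while Itgax (156 FPKM with PLG, 270.2 FPKM without) and H2-Ab1 (248 FPKM with PLG, 313 FPKM without) were lower. Flt3 was under 1 FPKM in every untreated sample, so it entered the test described below only through the PLG samples. Markers of T cells (5 in the table), NK cells (5), B cells (5) and fibroblasts (5) were each under 1 FPKM in every sample. Neutrophil markers (6) summed to 16.6 to 26.3 FPKM in PLG samples and 10.5 to 19.96 FPKM in untreated samples, and mast cell markers (3) to 8.13 to 11.8 FPKM in PLG samples and 7.40 to 16.9 FPKM in untreated samples. The part of the shifts in macrophage and dendritic markers in the results below was not tested, and in bulk RNA a change in the number of cells of a type and in the RNA per cell cannot be told apart.

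All 3 regulatory genes rose with PLG, to between 2.64 and 4.72 times their mean in untreated samples. Among the effectors, Tgtp2 and Iigp1 were barely present in untreated samples and clear in PLG samples, while Tgtp1 stayed under 1 FPKM in all samples. On the log2(FPKM + 1) scale, 5 of the 6 genes passed a filter of 1 FPKM in at least 5 samples, and these 5 were higher in limma with Benjamini-Hochberg adjustment over 9997 genes, where 29.1% of all tested genes were higher, 31.3% lower and 60.4% changed in either direction. Iigp1 and Tgtp2 passed that filter only through the PLG samples, so they had to differ to be tested. The 3 genes that passed in both groups were the regulatory ones.

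**Figure D1:**
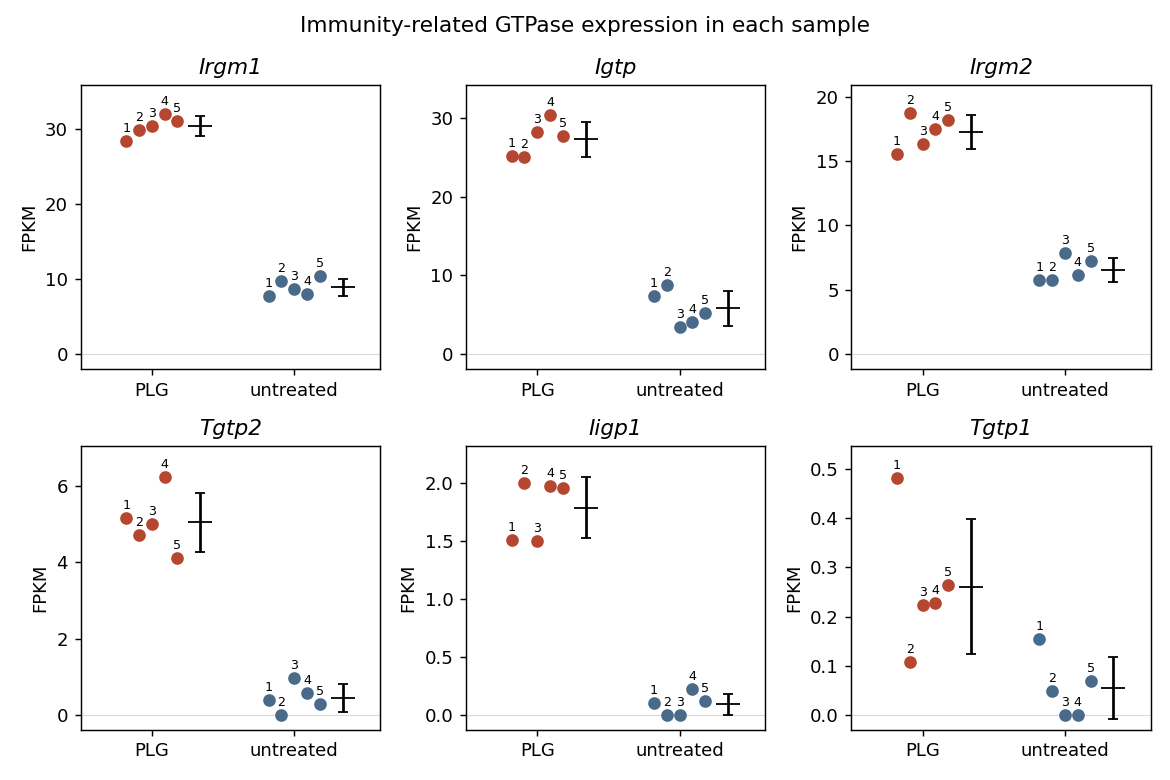
Expression of each gene in FPKM (y axis, a scale of its own per panel) in the 5 PLG samples and the 5 untreated samples, with the replicate number above each point and mean ± SD in black beside them. The groups are apart for 5 genes and overlap for Tgtp1, whose highest untreated sample, 0.154 FPKM, lies above PLG sample 2 at 0.107 FPKM.

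Irgm1 (ENSMUSG00000046879.7, chromosome 11, 48861968 to 48871683, minus strand) encodes a regulatory GTPase of the Golgi and lysosomal membranes that mice need to resist mycobacteria and other intracellular microbes. Its level was 28.4, 29.8, 30.4, 31.96 and 31.1 FPKM in PLG samples 1 to 5, and 7.68, 9.73, 8.65, 7.96 and 10.4 FPKM in untreated samples 1 to 5. The groups did not overlap, and the lowest PLG sample was far above the highest untreated sample, untreated 5. A separation of that kind, lowest PLG sample above highest untreated sample, held for 22.7% of all tested genes. The means were 30.3 ± 1.35 FPKM with PLG and 8.88 ± 1.16 FPKM without, 3.41 times as high with PLG (log2 fold change 1.67, SE 0.0758, limma adjusted p = 2.99e-10).

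Irgm2 (ENSMUSG00000069874.7, chromosome 11, 58199618 to 58222782, plus strand) encodes a second regulatory member, found mainly at the Golgi, which also restrains the non-canonical inflammasome in macrophages. Its level was 15.6, 18.7, 16.3, 17.5 and 18.2 FPKM in PLG samples 1 to 5, against 5.77, 5.73, 7.84, 6.11 and 7.20 FPKM in untreated samples 1 to 5. The groups did not overlap, and each group was tight, with coefficients of variation of 7.56% with PLG and 14.4% without. The mean was 17.3 ± 1.31 FPKM with PLG and 6.53 ± 0.943 FPKM without, a ratio of 2.64 (log2 fold change 1.28, SE 0.0860, limma adjusted p = 1.66e-08).

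Igtp (ENSMUSG00000078853.8, chromosome 11, 58199556 to 58207591, plus strand), also called Irgm3, encodes the regulatory member of the endoplasmic reticulum and lipid droplets, needed for resistance to Toxoplasma. PLG samples 1 to 5 had 25.2, 25.04, 28.2, 30.4 and 27.7 FPKM, and untreated samples 1 to 5 had 7.39, 8.83, 3.48, 4.08 and 5.16 FPKM. Untreated samples 1 and 2 lay above the other untreated samples, and all 5 lay far below the PLG samples. Its coefficient of variation was 8.18% with PLG and 39.1% without, the widest relative spread of the regulatory genes in untreated cells. The mean of 27.3 ± 2.23 FPKM with PLG was 4.72 times that of 5.79 ± 2.26 FPKM without (log2 fold change 2.12, SE 0.179, limma adjusted p = 1.79e-07).

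Iigp1 (ENSMUSG00000054072.12, chromosome 18, 60376027 to 60392634, plus strand) encodes Irga6, the best-studied effector, which coats the vacuole of avirulent Toxoplasma strains and is a substrate of that parasite's kinase ROP18. It reached 1.51, 2.003, 1.499, 1.98 and 1.96 FPKM in PLG samples 1 to 5, and 0.105, 0, 0, 0.220 and 0.121 FPKM in untreated samples 1 to 5. Every PLG sample was above every untreated sample, and untreated samples 2 and 3 had 0 reads. In reads this was 2550 over the 5 PLG samples and 96 over the 5 untreated samples. The mean was 1.79 ± 0.262 FPKM with PLG and 0.0892 ± 0.0926 FPKM without, a ratio of 20.1 (log2 fold change 1.36, SE 0.0985, limma adjusted p = 3.92e-08). The size of this fold change depends on the constant added before the logarithm, since it was 3.46 with 0.1 and 0.42 with 5, past the threshold with both.

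Tgtp2 (ENSMUSG00000078921.3, chromosome 11, 49057194 to 49064206, minus strand) and Tgtp1 (ENSMUSG00000078922.9, chromosome 11, 48985327 to 48994172, minus strand) both encode Irgb6, an effector that is among the first to load onto the Toxoplasma vacuole. Tgtp2 had 5.17, 4.72, 5.02, 6.23 and 4.10 FPKM in PLG samples 1 to 5, and 0.385, 0, 0.964, 0.564 and 0.290 FPKM in untreated samples 1 to 5. No untreated sample reached 1 FPKM, and the groups did not overlap. Its mean was 5.05 ± 0.777 FPKM with PLG and 0.441 ± 0.357 FPKM without, a ratio of 11.5 (log2 fold change 2.10, SE 0.157, limma adjusted p = 5.37e-08), from 3527 and 238 reads in all. Its log2 fold change was 3.60 with an added constant of 0.1 and 0.88 with 5, past the threshold with both.

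Tgtp1 was under the filter and was taken from a fit of 16927 genes without it, in which 19.8% of all genes were higher with PLG. It had 0.483, 0.107, 0.223, 0.227 and 0.265 FPKM in PLG samples 1 to 5, and 0.154, 0.048, 0, 0 and 0.068 FPKM in untreated samples 1 to 5. The groups overlapped, through PLG sample 2 and untreated sample 1. The log2 fold change was 0.25 (SE 0.0716, limma adjusted p = 0.0162), on 209 reads over the PLG samples and 35 over the untreated samples.

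Tgtp1 and Tgtp2 cannot be read as separate genes with confidence. Of the 50-base windows of their annotated transcripts, 81.2% in Tgtp1 and 86.6% in Tgtp2 occurred letter for letter in the transcripts of another gene, mostly each other, and of 100-base windows 73.1% in Tgtp1 and 76.8% in Tgtp2 did. The labels and headers do not say how reads with several matches were counted. Summed over both genes, the level was 5.31 ± 0.800 FPKM with PLG and 0.495 ± 0.334 FPKM without, 10.7 times as high with PLG (two-sided exact permutation test over 252 assignments, p = 0.00794, the smallest that 5 against 5 samples allow). Tgtp1 also shares 223 bases of exon, 6.96% of its length, with the family gene model Gm12185 on the same strand. For the other genes the shared windows of 50 bases were few, at 11.8% in Igtp, 7.83% in Irgm2, 1.69% in Iigp1 and 0.379% in Irgm1. Igtp and Irgm2 overlap by 162 exonic bases on the same strand, 8.01% of the length of Igtp and 4.39% of that of Irgm2, where reads may belong to either gene.

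**Figure D2:**
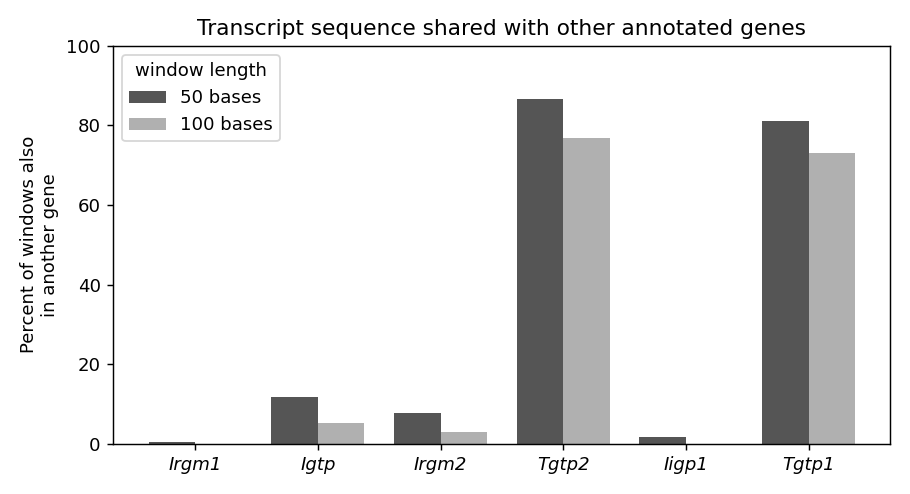
Percent of all windows of 50 bases (dark) and 100 bases (light) in the annotated transcripts of each gene that also occur in the transcripts of another gene (y axis, from 0 to 100). Tgtp2 and Tgtp1 stand above 70% with both lengths, and the other 4 genes stay at or under 11.8%.

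The genes kept a clear order of levels in PLG samples. FPKM is scaled to gene length, here the union of all annotated exons of a gene. Levels of different genes can be set side by side only as far as that length matches the transcripts expressed, which was not tested. Irgm1 led, followed by Igtp, whose range overlapped that of Irgm1 although Irgm1 was the higher of them in 5 of 5 samples. Below these came Irgm2, Tgtp2, Iigp1 and Tgtp1, each with a range apart from its neighbours. The places of Tgtp2 and Tgtp1, in both groups, depend on how reads that match both genes were counted, which is not known. In untreated samples Irgm1, Irgm2 and Igtp overlapped as neighbours in the order, and Irgm2 was above Igtp in 3 of 5 samples. The lowest Igtp value, 3.48 FPKM, was above the highest Tgtp2 value, 0.964 FPKM, and Tgtp2, Iigp1 and Tgtp1 overlapped as neighbours.

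Summed over the 6 genes, the family reached 76.3 to 88.3 FPKM in PLG samples and 18.9 to 24.3 FPKM in untreated samples. The regulatory genes made up most of it, with 74.9 ± 4.01 FPKM with PLG and 21.2 ± 2.39 FPKM without, a ratio of 3.53. The effector genes summed to 7.10 ± 0.806 FPKM with PLG and 0.584 ± 0.349 FPKM without, a ratio of 12.2. Their share of the family's FPKM was 9.40%, 8.49%, 8.24%, 9.56% and 7.59% in PLG samples 1 to 5, and 2.997%, 0.197%, 4.60%, 4.14% and 2.06% in untreated samples 1 to 5. The shares did not overlap between the groups, and untreated sample 2, where a single effector had any read, was the lowest.

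The within-sample log2 ratio of effector to regulatory FPKM, which scaling between samples cannot move, was -3.40 ± 0.15 with PLG and -5.70 ± 1.90 without (SD, n = 5 each). The difference of 2.29 gave p = 0.00794 in a two-sided exact permutation test, the smallest that the design allows. Without untreated sample 2 the difference was 1.47 (exact p = 0.00794). The direction rests on the scale of sums of FPKM: with the mean of log2(FPKM + 1) over each class in place of the sum, the difference was -0.46 (exact permutation p = 0.0159), a scale on which the added 1 limits the change of the low effector genes.

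**Figure D3:**
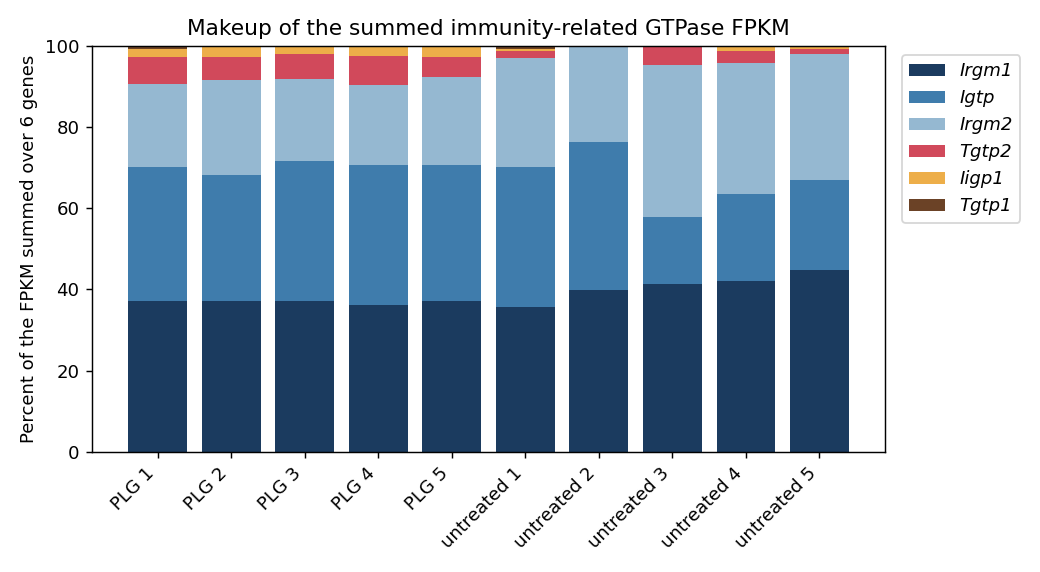
Share of each gene in the FPKM summed over the 6 genes (y axis, percent, from 0 to 100), with 1 bar for each sample and the PLG samples at the left. Effector genes, stacked at the top in red, yellow and brown, hold 7.59% to 9.56% of the PLG bars and 0.197% to 4.60% of the untreated bars.

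Ratios between single genes within a sample showed where members changed by unequal amounts. All 15 pairs were compared, with a constant of 0.1 FPKM and p-values adjusted over the pairs, and 9 passed the threshold. These 9 include the pairs of Tgtp1 with Igtp, Iigp1 and Tgtp2. In untreated samples Tgtp1 averaged 0.054 FPKM, under that constant, and it cannot be separated from Tgtp2 with confidence. Among the regulatory genes, the log2 ratio of Irgm1 to Irgm2 was 0.81 ± 0.09 with PLG and 0.44 ± 0.22 without (difference 0.37, exact permutation p = 0.0159, adjusted p = 0.0298). The log2 ratio of Irgm2 to Igtp was -0.66 ± 0.15 with PLG and 0.25 ± 0.72 without (difference -0.90, exact permutation p = 0.0238, adjusted p = 0.0397). Irgm2 was thus below Igtp in the PLG mean and above it in the untreated mean. The ratio of Irgm1 to Igtp, 0.15 ± 0.07 with PLG and 0.69 ± 0.55 without, did not pass (difference -0.53, exact permutation p = 0.143, adjusted p = 0.179).

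Ratios of regulatory to effector genes depended on the constant, because the effectors were near 0 in untreated samples. The log2 ratio of Irgm2 to Tgtp2 was 1.76 ± 0.27 with PLG and 3.96 ± 1.17 without (difference -2.20, exact permutation p = 0.00794, adjusted p = 0.0298). It kept this direction with a constant of 1, where the difference was -0.81 (adjusted p = 0.0198). The ratio of Irgm1 to Iigp1 turned round, with a difference of -1.69 at a constant of 0.1 (adjusted p = 0.0298) and 0.32 at a constant of 1 (adjusted p = 0.0265), and that of Igtp to Iigp1 was -1.16 at 0.1 (adjusted p = 0.0595) and 0.76 at 1 (adjusted p = 0.0325). The ratios of Irgm2 to Iigp1 and of Irgm1 to Tgtp2 passed at 0.1, with differences of -2.06 and -1.83, and did not at 1, with -0.07 and -0.42. No direction is therefore given for Iigp1 against the regulatory genes. Between Iigp1 and Tgtp2 the log2 ratio was -1.44 ± 0.31 with PLG and -1.31 ± 1.27 without at a constant of 0.1 (difference -0.14, exact permutation p = 0.841), and the difference was -0.74 at a constant of 1 (exact permutation p = 0.0238, adjusted p = 0.0325). The differences between Irgm1 and Irgm2 and between Irgm2 and Igtp kept direction and call with both constants. The number of pairs that passed was 0 of 15 without PLG sample 3, without PLG sample 4 or without PLG sample 5, and 5 without PLG sample 1 or PLG sample 2. The differences of the 9 pairs themselves moved by at most 0.25 on the log2 scale when a PLG sample was left out, with unadjusted exact permutation p-values of 0.0159 to 0.0714.

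The other genes listed for the family moved in both directions, and the list may not hold every gene of the family. Of the 18 symbols listed for them, 9 were in the table and 7 were tested, of which 3 were higher and 3 lower with PLG in limma, and 1 did not pass. Their median log2 fold change was -0.11, beside -0.02 over all 9997 tested genes, of which 29.1% were higher and 31.3% lower. Gm4951, from the cluster of Iigp1, averaged 9.25 ± 1.04 FPKM with PLG and 4.54 ± 2.01 FPKM without (log2 fold change 0.94, limma adjusted p = 0.000416), with groups that overlapped through untreated sample 5. F830016B08Rik, from the same cluster, averaged 1.79 ± 0.298 FPKM with PLG and 0.984 ± 0.321 FPKM without (log2 fold change 0.50, limma adjusted p = 0.00279), also with overlap. Gm5431, beside Irgm1, averaged 12.02 ± 0.571 FPKM with PLG and 8.86 ± 0.786 FPKM without (log2 fold change 0.40, limma adjusted p = 0.000120).

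Irgc1, a member known from testis that is not induced by interferon, fell to 0.875 ± 0.355 FPKM with PLG, against 3.33 ± 1.33 FPKM without (log2 fold change -1.19, SE 0.188, limma adjusted p = 9.41e-05). The gene model 9930111J21Rik1 averaged 4.04 ± 0.487 FPKM with PLG and 7.52 ± 0.517 FPKM without (log2 fold change -0.76, limma adjusted p = 1.63e-06). Its near copy 9930111J21Rik2 averaged 7.08 ± 0.630 FPKM with PLG and 9.58 ± 0.921 FPKM without (log2 fold change -0.39, limma adjusted p = 0.000647). These gene models share 80.4% of the 50-base windows of 9930111J21Rik1, so their reads may be divided between them. Irgq, a divergent member, had 7.35 ± 0.539 FPKM with PLG and 8.04 ± 0.943 FPKM without (limma adjusted p = 0.247). Gm4841 and Gm12185 were under the filter, with 0.170 ± 0.121 and 0.268 ± 0.0473 FPKM with PLG, against 0.0820 ± 0.0763 and 0.249 ± 0.141 FPKM without.

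**Figure D4:**
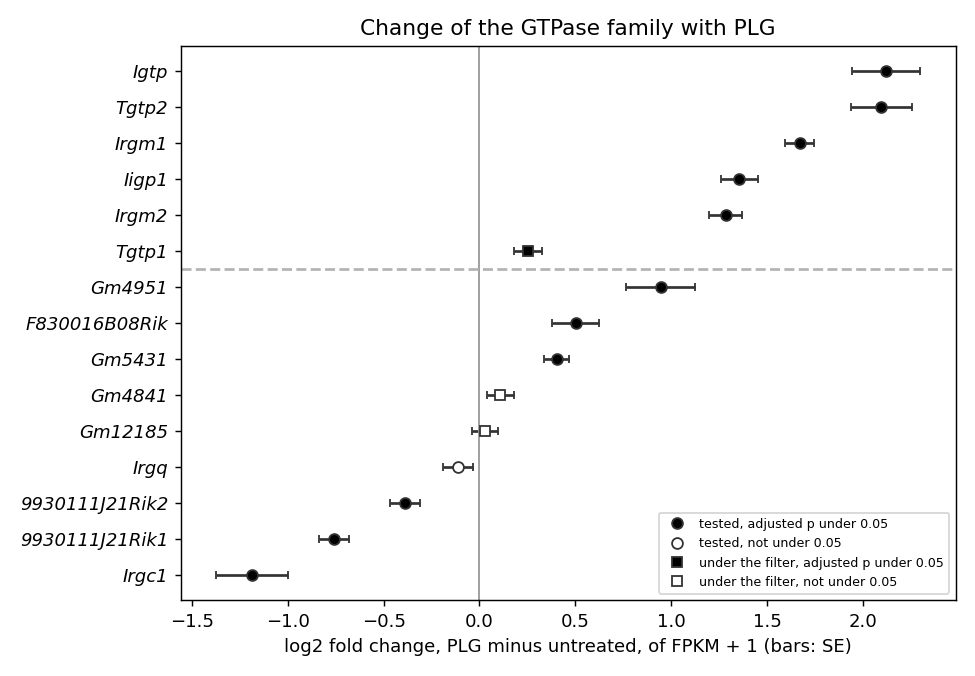
Log2 fold change of FPKM + 1, PLG minus untreated (x axis, bars are standard errors), for the 6 GTPases above the dashed line and 9 other genes of the family below it. The 6 lie between 0.25 for Tgtp1 and 2.12 for Igtp, and the other genes between -1.19 for Irgc1 and 0.94 for Gm4951.

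Neighbouring genes of the family moved in both directions. The cluster on chromosome 11 that begins with Irgm1 holds Gm5431, Gm12185, 9930111J21Rik1, Tgtp1, 9930111J21Rik2 and Tgtp2 on the same strand within 202 kb. In it the log2 fold change was 1.67 for Irgm1 and 2.10 for Tgtp2 at its ends, and -0.76 for 9930111J21Rik1 and -0.39 for 9930111J21Rik2 between them. The proteasome activator gene model Psme2b, which also lies inside, averaged 21.8 FPKM with PLG and 18.6 FPKM without (log2 fold change 0.21, limma adjusted p = 0.0633). The olfactory receptor gene Olfr56, whose annotated span covers Tgtp1 and Tgtp2, averaged 3.17 FPKM with PLG and 0.189 FPKM without (log2 fold change 1.82, limma adjusted p = 2.72e-08). Olfr56 passed the filter only through the PLG samples, so it had to differ to be tested. It was singled out after its value was seen, and it shares no exonic base with Tgtp1 or Tgtp2 in the annotation. Igtp and Irgm2 begin within 0.062 kb of each other on the same strand in another cluster of chromosome 11, although the RefSeq start behind the Irgm2 promoter shown above lies further downstream. The promoter stretches shown for Irgm1 and Tgtp1 likewise lie inside the annotated spans of those genes, downstream of where the spans begin. Iigp1 lies on chromosome 18 with Gm4951, Gm4841 and F830016B08Rik.

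**Figure D5:**
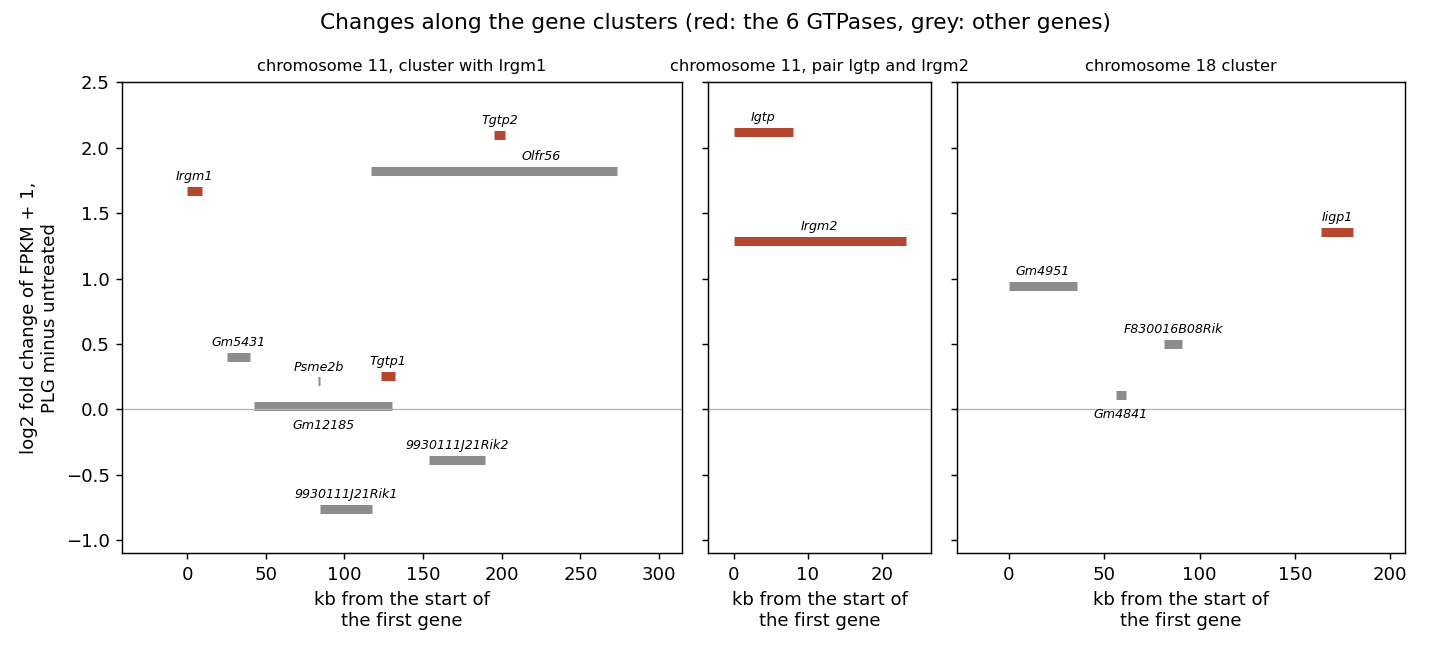
Log2 fold change of FPKM + 1, PLG minus untreated (y axis), of each gene drawn as a bar over its annotated span (x axis, kb from the start of the first gene of the cluster), with the 6 GTPases in red and other genes in grey. Within the left panel Irgm1 and Tgtp2 stand at 1.67 and 2.10, and 9930111J21Rik1 and 9930111J21Rik2 below 0.

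The guanylate-binding proteins, larger GTPases that join this family on pathogen vacuoles, rose in 8 of 9 tested genes and fell in 1, with a median log2 fold change of 2.18. Counts for this list and those that follow stand beside 29.1% higher and 31.3% lower among all tested genes. Gbp6, counted among the 8, passed the filter only through the PLG samples. Gbp2 averaged 305 ± 13.2 FPKM with PLG and 45.4 ± 4.70 FPKM without (log2 fold change 2.72, limma adjusted p = 7.16e-13). Gbp5, which also promotes inflammasome assembly, averaged 35.4 ± 1.21 FPKM with PLG and 2.27 ± 0.432 FPKM without (log2 fold change 3.49), and Gbp3 averaged 90.6 ± 7.05 FPKM with PLG and 12.9 ± 0.782 FPKM without. Gbp8 was the gene that fell, to 2.41 ± 0.526 FPKM with PLG, against 3.74 ± 0.575 FPKM without (limma adjusted p = 0.00359). Of the very large interferon-inducible GTPases, Gvin1 and Gm4070 were tested and both rose, each to 1.52 times its untreated mean. Genes of both groups have near copies, so single levels are uncertain where reads match several genes.

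Genes of interferon signalling, from ligands and receptors to kinases, transcription factors and feedback inhibitors, rose in 16 of 19 tested cases and fell in 2, with a median log2 fold change of 1.06. The 16 include the feedback inhibitors Socs1, Socs3, Usp18 and Ptpn2. The ligands were at the limit of detection: Ifng had 11 reads over the 5 PLG samples and 0 over the 5 untreated samples (limma adjusted p = 0.249 without the filter), and Ifnb1 had 13 reads over PLG samples and 0 over untreated samples (limma adjusted p = 0.224 without the filter). The reads of a time point of 24 h give no view of earlier ligand expression. Ifngr1, the ligand-binding chain of the interferon gamma receptor, fell to 14.96 ± 0.983 FPKM with PLG, against 26.7 ± 2.48 FPKM without (log2 fold change -0.79, limma adjusted p = 2.15e-07). Ifngr2, its signalling chain, averaged 46.4 ± 3.01 FPKM with PLG and 34.3 ± 2.78 FPKM without (log2 fold change 0.43, limma adjusted p = 4.52e-05). Jak1, a kinase of both receptors, had 52.0 ± 0.335 FPKM with PLG and 51.0 ± 2.47 FPKM without (limma adjusted p = 0.564).

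Of the interferon regulatory factors named here, Irf1, Irf7 and Irf8 rose with PLG and Irf2 fell. Irf1, which binds ISRE-like elements, averaged 24.4 ± 3.03 FPKM with PLG and 12.5 ± 2.001 FPKM without (log2 fold change 0.92, limma adjusted p = 3.90e-06). Irf7, an amplifier of type I interferon, averaged 158 ± 7.98 FPKM with PLG and 4.50 ± 1.26 FPKM without (log2 fold change 4.88), and Irf8, a myeloid lineage factor, averaged 124 ± 6.15 FPKM with PLG and 28.1 ± 2.41 FPKM without (log2 fold change 2.11). Irf2, an antagonist of Irf1 at many promoters, was lower, with 8.45 ± 0.343 FPKM with PLG and 9.99 ± 1.05 FPKM without (log2 fold change -0.21, limma adjusted p = 0.0193).

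Other well-known interferon gamma targets rose in 8 of 9 tested genes and fell in 1, with a median log2 fold change of 1.24. Cxcl10 and Nos2, counted among the 8, passed the filter only through the PLG samples. Tap1, a transporter of peptides for MHC class I, averaged 52.1 ± 4.23 FPKM with PLG and 13.3 ± 1.23 FPKM without (log2 fold change 1.89). The chemokine gene Cxcl10 averaged 19.8 ± 1.78 FPKM with PLG and 0.357 ± 0.231 FPKM without, and Nos2, the inducible nitric oxide synthase, averaged 78.8 ± 5.58 FPKM with PLG and 0.553 ± 0.281 FPKM without. Ciita, the master regulator of MHC class II genes, was the target that fell, to 8.61 ± 0.730 FPKM with PLG, against 14.8 ± 2.27 FPKM without (log2 fold change -0.71, limma adjusted p = 2.16e-05). Several of these genes also respond to other stimuli of macrophages.

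The machinery that brings the GTPases to vacuoles held genes that rose and genes that fell. Of 12 genes of the autophagy conjugation system, which helps to load effector GTPases onto vacuoles, 3 rose, 2 fell and 7 did not pass, with a median log2 fold change of -0.02, beside 29.1% higher and 31.3% lower among all tested genes. Atg7, its activating enzyme, fell to 9.09 ± 0.502 FPKM with PLG, against 16.4 ± 1.94 FPKM without (log2 fold change -0.78, limma adjusted p = 8.33e-07), and Atg3, a conjugating enzyme, to 15.2 ± 1.05 FPKM with PLG, against 23.2 ± 1.42 FPKM without (log2 fold change -0.58). Atg12, Atg10 and Atg4b rose, with log2 fold changes of 0.22, 0.29 and 0.22. Gabarap, a ubiquitin-like protein of the system, had 137 ± 16.0 FPKM with PLG and 134 ± 3.93 FPKM without (limma adjusted p = 0.776), and Gabarapl1 had 65.1 ± 5.72 FPKM with PLG and 71.4 ± 5.46 FPKM without (limma adjusted p = 0.106).

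Genes of ubiquitin, adaptors and galectins that mark damaged or targeted vacuoles rose in 8 of 11 tested cases and fell in 3. Over all tested genes 29.1% were higher and 31.3% lower. The median log2 fold change of these vacuole genes was 0.72. Sqstm1, the ubiquitin adaptor p62, averaged 393 ± 33.1 FPKM with PLG and 131 ± 7.85 FPKM without (log2 fold change 1.58, limma adjusted p = 7.92e-11). Rnf213, a ubiquitin ligase that coats intracellular bacteria and vacuoles, averaged 90.1 ± 5.50 FPKM with PLG and 24.9 ± 2.28 FPKM without (log2 fold change 1.82), and the polyubiquitin gene Ubb averaged 331 ± 13.4 FPKM with PLG and 201 ± 10.3 FPKM without (log2 fold change 0.72). Lgals3, the gene of galectin 3, fell to 982 ± 76.2 FPKM with PLG, against 1835 ± 110 FPKM without (log2 fold change -0.90, limma adjusted p = 3.48e-08). Lgals8, whose galectin detects broken vacuoles, and the adaptor gene Optn also fell, with log2 fold changes of -0.29 and -0.34.

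Other genes resembled single members closely over the 10 samples. Likeness was measured as the root mean square difference of log2(FPKM + 1), each gene taken relative to its own untreated mean, with members and gene models left out and Tgtp1, which was under the filter, not compared. On this log2 scale Irgm1 was nearest to Poglut1, at 0.08, and Car13, at 0.10. Irgm2 was nearest to Stat3, a transcription factor of cytokine signalling, at 0.11, and to Nlgn2, at 0.11. Igtp was nearest to Ly6a, a surface antigen gene, at 0.16, and to Nfkbib, an inhibitor of NF-kB, at 0.16. Iigp1 was nearest to Dcbld2, at 0.09, and Hcls1, at 0.10, and Tgtp2 to Hmgn3, at 0.15, and Pvr, at 0.16. Between the members themselves the distance was 0.16 for Irgm2 and Iigp1, the closest pair, and 0.72 for Irgm2 and Igtp, the most distant pair. The closeness of Irgm2 and Iigp1 depends on the added 1. Their log2 fold changes were 1.28 and 1.36 with it, and 1.40 and 3.46 with 0.1. The distances, those from Iigp1 to Dcbld2 and Hcls1 included, were not computed with other constants. All samples share the split into PLG and untreated, so these distances mostly measure the size of the change on that scale.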

How the data were processed

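RNA from 10 samples was sequenced after column isolation and a total RNA library kit, per the labels' protocols. The authors deposited FPKM for 16936 genes beside lengths and coordinates. Tools named without roles, per the submitters' processing notes, were STAR 2.7.3a, featureCounts 2.0.0, cutadapt 2.10, FastQC 0.11.9 and DESeq2 1.24.0, on the GRCm38.p6 build. Which annotation release and strand setting were used, and what was done with multiply matching reads, is not given in the sources used here. Coordinates are those of the table, and those of 16485 gene identifiers equal GENCODE release M21.

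FPKM times length fell on whole multiples of 1 step in each sample, from which the reads behind each value were inferred. Wholeness was checked on 4013 to 9554 values per sample, those above 0 whose rounding left an error under 0.1 read. Of these, 99.9% to 100% were whole within 0.1 read. The step was itself chosen so that low values were whole, so this share is partly set by that choice. Reads on the table's genes were 88.1% to 90.8% of the inferred denominators of 31977241 to 70737036 reads. The comparison used limma 3.58.1 under R 4.3.3 on log2(FPKM + 1) with an intensity trend, over genes at or above 1 FPKM in at least 5 of the 10 samples. Benjamini-Hochberg adjustment ran over the 9997 tested genes, with a threshold of 0.05. FPKM is not a count, so no count model gave the main result. The model was tested on simulated data. Single values were compared by two-sided exact permutation tests, whose smallest p is 0.00794. Shared windows, coding sequences and motif matches were computed with Python 3.11.15 and Biopython 1.88.

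Members and gene lists were chosen with earlier results of these data known. The genes named are the members and the listed other genes of the family that are in the table. From each further list they are the 3 with the smallest p in each direction and the 2 most abundant that did not pass. Several interferon pathway genes, whatever their values, and the 2 nearest genes by likeness were added. A gene that this rule names is not reported here. Alternatives were other added constants, filters, scalings and moderation, voom on the recovered reads, a replicate block and leaving out each sample. Listed genes without a row were not analysed here.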

Additional observations from a re-analysis of the deposited data

Results flagged for a closer look

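In 4 of 34 sets of 5 samples examined, an extreme sample stood further from the nearest other sample than 0.71 of the whole range, Dixon's limit for 5 samples, a distance that chance gives in about 1 in 20 sets. Irgc1 was lowest among PLG samples at 0.263 FPKM, where the next value was 0.887 FPKM, and it was highest among untreated samples at 5.65 FPKM in untreated 2, where the next value was 3.15 FPKM. Gm4951, from the cluster of Iigp1, was highest among untreated samples at 7.99 FPKM in untreated 5, where the next value was 4.51 FPKM. The log2 ratio of effector to regulatory FPKM was lowest among untreated samples at -8.98 in untreated 2, where the next value was -5.57.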

How the results depend on the processing

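Under every alternative, the replicate block and voom on the recovered reads included, Irgm1, Irgm2 and Igtp stayed higher with PLG and past the threshold of limma's adjusted p. Iigp1 and Tgtp2 did so wherever they were tested, but they passed the filter of 1 FPKM only through the PLG samples. At settings with that filter they had to differ to be tested, so their calls there are no added support. With a filter of 5 FPKM, 3 of the 6 genes were tested and called, because Iigp1, Tgtp1 and Tgtp2 fell below it. At that setting 2185 of all 6356 tested genes were higher and 2133 lower. Without a filter 6 were called, where 3360 of all 16927 genes, 19.8%, were higher. The labels do not pair the samples by replicate number. Same-numbered samples had correlations of -0.12 to 0.10 after each group was centred, which cannot exclude a shared mouse or culture. With the replicate block 5 members were called, beside 2797 higher and 2988 lower among 9997 tested genes. Requiring a fold of at least 2 left 835 higher and 567 lower genes of the 2914 and 3126. The effector to regulatory log2 difference of 2.29 had p = 0.0625 in the exact sign-flip test of the replicate block, the smallest that 5 differences allow, became -0.46 with means of log2(FPKM + 1), and lay between 1.47 and 2.62 when samples were left out one at a time. Of the 15 pair ratios, 9 passed, 11 with an added constant of 1, a setting chosen after seeing the data, 0 under the replicate block, whose smallest p cannot pass, and 0 to 10 with a sample left out. Voom gave log2 fold changes of 5.90 for Iigp1 and 4.52 for Tgtp2, against 1.36 and 2.10 with 1 added to the FPKM. Depth limits Tgtp1, Iigp1 and Tgtp2 in untreated samples, with 35, 96 and 238 reads in all, and intervals from reads would cover counting error only.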
